A study of Homo sapiens with 12 samples.

Results

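The 78 nuclear genes described here carry the names of subunits of oxidative phosphorylation, although UQCRBP1 is a pseudogene and ATP5S encodes no subunit, in the human colon cancer line LS411N and its BRAF inhibitor-resistant derivative LS411N-BR. They were chosen by name pattern (NDUFA, NDUFB, NDUFC, NDUFS and NDUFV genes, SDHA to SDHD, UQCR genes, CYC1, 10 COX genes and ATP5 genes) among 25540 genes listed in both expression tables. The rule also asked for a level of at least 1 TPM (a measure of abundance per transcript length, scaled to the same total in each library) in at least 3 of 12 libraries. This measured level chose the members and is not a result. 79 genes matched the names and 78 passed, 77 of them in all 12 libraries. ATP5L2 was left out, with a highest deposited level of 0.457 TPM. The members just inside the threshold were ATP5E at 0 to 6.33 deposited TPM, UQCRBP1 at 1.40 to 8.43 and NDUFC2 at 3.99 to 6.46.

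RNA was sequenced from 4 groups of 3 libraries: LS411N-BR with doxycycline, LS411N-BR without it, LS411N with doxycycline and LS411N without it. The cells of all 12 libraries were puromycin-resistant and carried a hairpin RNA that silences MUC1 when doxycycline is added. The induced cells received 500 ng/ml doxycycline and the control cells 0.1% DMSO. LS411N-BR was grown in medium with 4 µM of a BRAF inhibitor, and LS411N in medium without it. Doxycycline was present in every induced library and in no control, so the drug itself and the hairpin cannot be told apart. The inhibitor, the hairpin sequence, the duration of doxycycline, and whether the cells were a clone or a pool are not stated. The cells were grown in triplicate, with no statement that the cultures were independent, so p-values measure only the spread between these libraries, which may be technical. The comparisons address what doxycycline together with the induced hairpin changes in each line, against DMSO controls. They also address whether the change differs in the resistant line, and how the lines stand to each other.

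Oxidative phosphorylation takes place in the inner mitochondrial membrane. Complex I oxidises NADH and complex II oxidises succinate, both pass electrons through ubiquinone to complex III, cytochrome c carries them to complex IV, which reduces oxygen, and complex V uses the resulting proton gradient to make ATP. A few core subunits are encoded in mitochondrial DNA and the rest, including all of complex II, in the nucleus. Many nuclear subunit genes carry promoter motifs for the factors NRF1 and the ETS protein GABP, and colon epithelium uses the pathway for energy.

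By complex, 36 members belonged to complex I, 4 to complex II, 11 to complex III, 11 to complex IV and 16 to complex V. NDUFA4 is counted with complex IV, in which its protein is a subunit despite its name. ATP5S is counted with complex V by its name only, since its protein is not a subunit of the enzyme. UQCRBP1 is a processed pseudogene by annotation and UQCRHL is an intronless copy of UQCRH. A named pseudogene exists for 44 of the 78 members, 23 overlap another gene on the same strand and 33 a gene on the opposite strand. How the authors assigned reads to such copies and overlaps, and whether they used strand, is not given, so values of those members are uncertain to that extent.

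All levels below are deposited TPM multiplied by 1 median-of-ratios factor per library (0.849 to 1.17), called rescaled TPM, and every ± after a level is the SD over 3 libraries. Log2 changes are of log2(rescaled TPM + 1), which understates changes of genes with few TPM. Calls rest on limma's two-sided test, with an adjusted p (Benjamini-Hochberg, over all genes tested) under 0.05. Short RNA genes took 47.3, 51.3 and 50.4% of the deposited TPM in LS411N-BR with doxycycline, against 54.2, 52.3 and 53.8% without it, and 51.9, 53.8 and 56.2% in LS411N with doxycycline, against 58.2, 58.1 and 47.2% without it. The share was lower with doxycycline in LS411N-BR without overlap, and its part in the results was not tested. Replicate 3 of the LS411N controls stood apart in this share. Its per-gene log2 values differed from those of replicates 1 and 2 with an SD of 0.221 and 0.226, compared with 0.094 to 0.122 for 10 further replicate pairs. Of 10 colon epithelium markers, 9 passed the level filter, with a summed level of 4043 to 4168 rescaled TPM in LS411N-BR with doxycycline, 3303 to 3461 without it, 3442 to 3671 in LS411N with doxycycline and 2671 to 2894 without it. CDX1, an intestinal transcription factor, was at most 0.0439 rescaled TPM and at 0 in 5 libraries. Of 6 immune and blood markers only CD68 passed the filter, at 7.52 to 63.3 rescaled TPM, while PTPRC and CD3E were at most 0.0582. Fibroblast markers summed to at most 3.38 and endothelial markers to at most 0.0368 rescaled TPM. Of the fibroblast markers only LUM, at 0.0828 to 2.86, passed the filter, in LS411N-BR and not in LS411N. LUM was called higher with doxycycline in LS411N-BR (log2 change 0.54), and stood higher there than in LS411N without doxycycline (log2 difference 1.04). CD68 and the epithelial sum moved with doxycycline and with the line. The part of LUM, CD68 and the epithelial sum in the results below was not tested. In bulk RNA, fewer cells of a type and less RNA per cell cannot be told apart.

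MUC1, the target of the hairpin, was at 0.593, 0.357 and 0.392 rescaled TPM in LS411N-BR with doxycycline, against 3.88, 3.83 and 4.43 without it, and at 0.974, 0.817 and 1.03 in LS411N with doxycycline, against 5.44, 7.05 and 4.12 without it. The groups did not overlap in either line. It fell by 88.9% in LS411N-BR (log2 change -1.80 ± 0.07 SE, limma adjusted p = 6.1e-08) and by 83% in LS411N (-1.73 ± 0.15 SE, limma adjusted p = 6.2e-05), as the labels state.

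With doxycycline, most oxidative phosphorylation genes changed little, and single subunits changed in opposite directions within the same complex. In LS411N-BR, 9 of 78 members were called higher (11.5%, against 33.5% of all genes tested) and 19 called lower (24.4%, against 31% of all genes), while 50 did not pass the test. In LS411N, 6 members were called higher (7.69%, against 19.1% of all genes), 2 called lower (2.56%, against 15.4% of all genes) and 70 did not pass. Both shares lay below the background in both lines. The median log2 change of the members was -0.04 in LS411N-BR (interquartile range -0.11 to 0.06), against 0.01 over all genes tested (-0.16 to 0.18), and 0.05 in LS411N (-0.01 to 0.11), against 0.02 (-0.12 to 0.16). The members' changes were thus spread over a narrower range than those of all genes in each line. This comparison was not matched for level. The median member stood at 76.2 to 101 rescaled TPM over the 4 groups, whereas all genes tested include those near 1 TPM. By complex, the median log2 change in LS411N-BR was -0.04 in complex I, -0.0045 in II, 0.03 in III, -0.08 in IV and -0.02 in V, and in LS411N it was 0.05 in complex I, 0.03 in II, 0.08 in III, 0.0049 in IV and 0.07 in V. With TPM as deposited all 10 of these medians were above 0, and with 1 library left out the medians of complexes I, II, III and V in LS411N-BR and of III and IV in LS411N changed sign. In LS411N-BR this was without replicate 3 of the induced libraries for I, II and V (0.0015, 0.0069 and 0.0129), replicate 1 of the controls for II (0.013) and replicate 2 of the controls for III (-0.0472), and in LS411N without replicate 3 of the controls for III and IV (-0.0052 and -0.0144) and replicate 2 of the induced libraries for IV (-0.0203). With a filter of 5 TPM the median of complex III in LS411N-BR was -0.014. As deposited, 34 of the 44 members below 0 in LS411N-BR were above 0, 9 of them among the 19 called lower. These counts depend on the scaling and on single libraries: with TPM as deposited, where the median of all genes shifted to 0.18 in LS411N-BR and 0.08 in LS411N, 44 members were called higher and 5 lower in LS411N-BR and none in LS411N. Without replicate 3 of LS411N-BR with doxycycline that line had 14 members called higher and 15 lower, and without replicate 3 of LS411N without doxycycline LS411N had 13 called higher and 8 lower, against 1 to 3 higher and 2 lower without any of the other 5 libraries of LS411N.

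**Figure D1:**
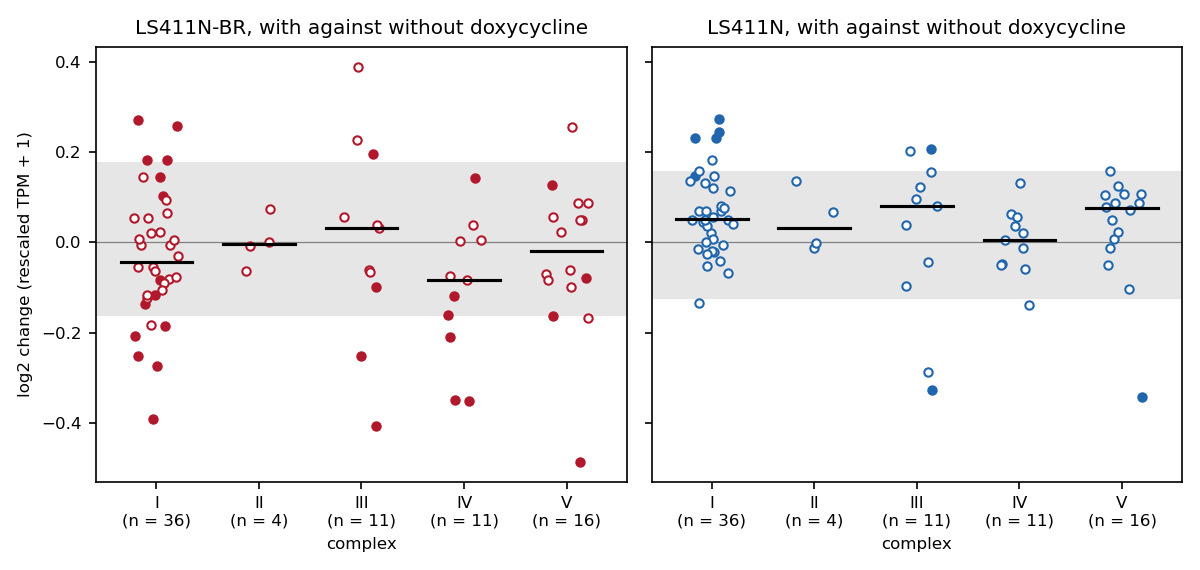
Log2 change with doxycycline of each of the 78 members (points) by complex, in LS411N-BR (left) and LS411N (right). Filled points are members called at a limma adjusted p under 0.05, black bars are complex medians, and the grey band is the interquartile range of all genes tested. Most points lie inside the band in both lines, and LS411N-BR has 19 members called lower, against 2 in LS411N.

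The matrix arm of complex I, which takes electrons from NADH and hands them to ubiquinone, held members that changed in opposite directions in LS411N-BR: 3 of its 16 were called higher (18.8%, against 33.5% of all genes) and 5 lower (31.2%, against 31%), so the share called lower was that of all genes. NDUFS8, an iron-sulfur subunit close to the ubiquinone site, was at 47.2, 51.8 and 46.9 rescaled TPM in LS411N-BR with doxycycline, against 65.3, 62.7 and 64.2 without it. All 3 induced libraries lay below the controls, 24.1% lower by the means (log2 change -0.39 ± 0.04 SE, limma adjusted p = 2.3e-05). In LS411N the same gene was at 98.4, 104 and 89.5 with doxycycline, against 102, 103 and 94.3 without it, and the groups overlapped (limma adjusted p = 0.66). NDUFS7, the iron-sulfur subunit that passes electrons to ubiquinone, was at 35.6, 36.2 and 40.9 in LS411N-BR with doxycycline, against 47.4, 43.1 and 46.2 without it (-0.27 ± 0.05 SE, limma adjusted p = 0.0016). With TPM as deposited its log2 change there was -0.08 and not called (limma adjusted p = 0.28). NDUFS1, the largest subunit and a carrier of iron-sulfur clusters, averaged 56.7 ± 0.672 with doxycycline and 61.6 ± 0.846 without it in LS411N-BR (-0.12 ± 0.03 SE, limma adjusted p = 0.0041). The other members of this arm called lower in LS411N-BR were NDUFV1, which binds the flavin that accepts electrons from NADH, at -0.08, and NDUFA2, an accessory subunit, at -0.14. In LS411N none of these 5 was called, with log2 changes of -0.04, 0.05, 0.04, 0.07 and -0.07. With TPM as deposited, the log2 changes of NDUFS1, NDUFV1 and NDUFA2 in LS411N-BR were 0.08, 0.12 and 0.06, so their directions rest on the scaling. The call of NDUFV1 was also lost without any 1 of the 6 libraries other than replicate 2 of the induced ones (limma adjusted p 0.055 to 0.13).

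NDUFV2 and NDUFV3, which sit beside NDUFV1 at the tip of the matrix arm, were higher with doxycycline in both lines. NDUFV3 was at 7.18, 6.92 and 6.6 rescaled TPM in LS411N-BR with doxycycline, against 5.29, 5.59 and 5.97 without it, and at 6.68, 6.8 and 6.96 in LS411N with doxycycline, against 5.34, 5.22 and 5.84 without it. No induced library overlapped a control in either line, and the log2 changes were 0.26 ± 0.05 SE in LS411N-BR (limma adjusted p = 0.001) and 0.27 ± 0.06 SE in LS411N (limma adjusted p = 0.007). NDUFV2, an iron-sulfur subunit, averaged 161 ± 6.69 with doxycycline and 142 ± 2.51 without it in LS411N-BR (0.18 ± 0.04 SE, limma adjusted p = 0.0015), and 271 ± 10.8 with it and 231 ± 14.8 without it in LS411N (0.23 ± 0.06 SE, limma adjusted p = 0.019). The call of NDUFV2 in LS411N was lost without replicate 1 or 2 of the controls or replicate 2 or 3 of the induced libraries, with limma adjusted p between 0.056 and 0.078. NDUFA12, an accessory subunit of this arm, was called higher in LS411N-BR alone, at 312, 295 and 250.1 with doxycycline, against 238, 222 and 247 without it (0.27 ± 0.07 SE, limma adjusted p = 0.0095); in LS411N its log2 change was 0.16 (limma adjusted p = 0.059). NDUFA5, another accessory subunit, averaged 15.3 ± 0.66 with doxycycline and 15.4 ± 0.646 without it in LS411N-BR, with overlapping groups. In LS411N it averaged 24.3 ± 1.41 with doxycycline and 20.6 ± 1.77 without it and was called higher (0.23 ± 0.07 SE, limma adjusted p = 0.033), a call lost without replicate 1 or 2 of the controls or replicate 2 or 3 of the induced libraries (limma adjusted p 0.083 to 0.13).

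The membrane arm of complex I, which pumps protons, had 20 members. In LS411N-BR 3 were called higher (15%, against 33.5% of all genes) and 3 lower (15%, against 31%). In LS411N 2 were called higher (10%, against 19.1%) and none lower (against 15.4%). NDUFA1, a small subunit at the joint of both arms, was at 258, 246 and 242 rescaled TPM in LS411N-BR with doxycycline, against 228, 200.2 and 229 without it (0.18 ± 0.05 SE, limma adjusted p = 0.013). In LS411N it was at 456, 456 and 451 with doxycycline, against 412, 391 and 349.8 without it (0.24 ± 0.07 SE, limma adjusted p = 0.021). It was the only member of this arm called in both lines, and in LS411N its call was lost without any 1 of the 3 induced libraries (limma adjusted p 0.061 to 0.072). The accessory subunits NDUFB2 and NDUFA10 were also called higher in LS411N-BR, at 0.14 and 0.10, and NDUFA8 in LS411N, at 0.15 (limma adjusted p = 0.040). The call of NDUFA10 was lost without replicate 1 or 3 of the controls or replicate 1 or 2 of the induced libraries (limma adjusted p 0.0501 to 0.072), and that of NDUFA8 without any 1 library of LS411N other than replicate 3 of the controls (0.061 to 0.15). NDUFB8, an accessory subunit far from the matrix arm, was at 59.8, 62.3 and 57.4 in LS411N-BR with doxycycline, against 78.4, 65 and 71.5 without it (-0.25 ± 0.06 SE, limma adjusted p = 0.0048), while in LS411N it averaged 158 ± 3.92 with doxycycline and 158 ± 2.44 without it. With TPM as deposited NDUFB8 had a log2 change of -0.05 in LS411N-BR and was not called (limma adjusted p = 0.45). NDUFB5 and NDUFA11, accessory subunits of the same arm, were called lower in LS411N-BR at -0.21 and -0.19. With TPM as deposited these were -0.0062 and 0.0065, so the fall rests on the scaling.

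Complex II, succinate dehydrogenase, which is also an enzyme of the citric acid cycle, showed no member called by limma in either line. Of its 4 members 1, SDHB, was higher at an unadjusted p under 0.05 in each line. So were 35.4% of all genes in LS411N-BR and 24.4% in LS411N. SDHA, the flavin subunit that oxidises succinate, was at 40.4, 41.6 and 40.4 rescaled TPM in LS411N-BR with doxycycline, against 41.8, 41.9 and 39.4 without it, and at 89.3, 90.6 and 86.2 in LS411N with doxycycline, against 87.2, 86.6 and 94.9 without it. Induced and control libraries overlapped in both lines, with log2 changes of -0.01 ± 0.03 SE in LS411N-BR and -0.01 ± 0.05 SE in LS411N. SDHB, the iron-sulfur subunit, averaged 131 ± 0.922 with doxycycline and 124 ± 3 without it in LS411N-BR, and 104 ± 3.57 with it and 94.4 ± 5.31 without it in LS411N. Its groups did not overlap in either line, yet limma gave adjusted p = 0.053 in LS411N-BR and 0.091 in LS411N. It passed without replicate 3 of the LS411N-BR controls (limma adjusted p = 0.035) and without replicate 3 of the LS411N controls (0.011). SDHC and SDHD, which anchor the enzyme in the membrane, had log2 changes of -0.00 ± 0.04 SE and -0.06 ± 0.03 SE in LS411N-BR and -0.00 ± 0.11 SE and 0.07 ± 0.07 SE in LS411N. SDHC was at 9.41, 9.67 and 9.7 in LS411N with doxycycline, against 10.8, 10.7 and 7.65 without it: replicate 3 of the controls lay below all others, and without it the log2 change was -0.15 (limma adjusted p = 0.021).

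Complex III held the member with the smallest adjusted p in both lines. UQCRFS1, the Rieske iron-sulfur protein that takes electrons from ubiquinol (chromosome 19, 29205321 to 29213541, minus strand in GENCODE 29 on GRCh38), was at 95.6, 101 and 97.1 rescaled TPM in LS411N-BR with doxycycline, against 132, 132 and 127 without it, and at 92.3, 93.4 and 95.5 in LS411N with doxycycline, against 121, 114 and 118 without it. Every induced library lay below every control of its line. The gene was 24.7% lower in LS411N-BR (-0.41 ± 0.03 SE, limma adjusted p = 4.1e-06) and 20.4% lower in LS411N (-0.33 ± 0.05 SE, limma adjusted p = 0.001). 3 pseudogenes are named after it. UQCR10, a small subunit, went the other way, averaging 72.1 ± 0.476 with doxycycline and 63 ± 4.57 without it in LS411N-BR (0.20 ± 0.05 SE, limma adjusted p = 0.0044) and 90.2 ± 1.62 with it and 78.3 ± 7.33 without it in LS411N (0.21 ± 0.07 SE, limma adjusted p = 0.044). The LS411N call was lost without any 1 library of that line other than replicate 3 of the controls (limma adjusted p 0.086 to 0.14). UQCRQ, a small subunit that binds ubiquinone, was at 36, 38.6 and 33.8 in LS411N-BR with doxycycline, against 44.7, 43.8 and 40.9 without it (-0.25 ± 0.05 SE, limma adjusted p = 0.0016). With TPM as deposited its log2 change there was -0.05 and not called (limma adjusted p = 0.46). UQCRC1, a core subunit, averaged 82.2 ± 1.21 with doxycycline and 88.2 ± 1.36 without it in LS411N-BR and was called lower (-0.10 ± 0.03 SE, limma adjusted p = 0.011); the log2 change was 0.10 with TPM as deposited and the adjusted p 0.052 without replicate 1 of the controls. The other subunits (CYC1, UQCRB, UQCRC2, UQCRH and UQCR11) had log2 changes of -0.07, 0.06, -0.06, 0.04 and 0.03 in LS411N-BR, none called, and all 5 were between 0.14 and 0.25 with TPM as deposited. The pseudogene UQCRBP1 had a log2 change of 0.39 ± 0.16 SE in LS411N-BR and -0.29 ± 0.12 SE in LS411N, neither called.

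In LS411N-BR complex IV, cytochrome c oxidase, had 5 of 11 members called lower (45.5%, against 31% of all genes). It had 1 called higher there (9.09%, against 33.5%). In LS411N none was called, against 15.4% of all genes lower and 19.1% higher. At an unadjusted p under 0.05, 1 was lower and 1 higher in LS411N, against 20.4% and 24.4% of all genes. COX5B, a zinc-binding subunit (chromosome 2, 97646040 to 97648383, plus strand), was at 269.6, 302 and 261 rescaled TPM in LS411N-BR with doxycycline, against 367, 347 and 345 without it. All induced libraries lay below the controls (-0.35 ± 0.05 SE, limma adjusted p = 0.00033). In LS411N it was at 407, 413 and 401 with doxycycline, against 442, 437 and 395 without it, with overlap (-0.06 ± 0.06 SE, limma adjusted p = 0.47). COX7B, a small subunit of the membrane domain, was at 203, 208 and 166 in LS411N-BR with doxycycline, against 245, 244 and 244 without it (-0.35 ± 0.07 SE, limma adjusted p = 0.0018), and replicate 3 of the induced libraries was the lowest. In LS411N, COX7B averaged 521 ± 21 with doxycycline and 574 ± 11.1 without it (-0.14 ± 0.05 SE, limma adjusted p = 0.076, and 0.035 without replicate 3 of the controls). COX7C, a small membrane subunit and the most abundant member in 3 of the 4 groups, averaged 764 ± 63 with doxycycline and 881 ± 35 without it in LS411N-BR (-0.21 ± 0.06 SE, limma adjusted p = 0.013). With TPM as deposited its log2 change was -0.0079 and not called (limma adjusted p = 0.92), so its fall rests on the scaling. COX4I1, a large nuclear subunit that binds regulatory ATP, was called lower at -0.16 (0.04 with TPM as deposited, and not called without replicate 1 or 3 of the controls or replicate 3 of the induced libraries, limma adjusted p 0.079 to 0.14), and COX6B1, which lies where paired enzymes meet, at -0.12. The call of COX6B1 was lost without replicate 1 or 3 of the controls or 2 or 3 of the induced libraries (limma adjusted p 0.068 to 0.15), and its log2 change was 0.08 with TPM as deposited. NDUFA4 was the member called higher, at 91.8, 94.3 and 90.1 with doxycycline, against 86.3, 77.7 and 86.2 without it (0.14 ± 0.04 SE, limma adjusted p = 0.015, and 0.053 without replicate 2 of the induced libraries).

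In complex V, ATP synthase, 1 of 16 members was called higher in LS411N-BR (6.25%, against 33.5% of all genes). There 3 were called lower (18.8%, against 31%). In LS411N 1 was called lower (6.25%, against 15.4%) and none higher (against 19.1%). ATP5S (DMAC2L in newer naming), a mitochondrial protein of the coupling factor B family, had the largest fall among the members in both lines. It was at 5.34, 5.28 and 5.66 rescaled TPM in LS411N-BR with doxycycline, against 7.44, 8.23 and 8.36 without it, and at 4.76, 5.08 and 5.42 in LS411N with doxycycline, against 6.48, 6.94 and 6.71 without it. The groups did not overlap (-0.49 ± 0.05 SE, limma adjusted p = 1.6e-05 in LS411N-BR, and -0.34 ± 0.06 SE, adjusted p = 0.0031 in LS411N). Among subunits of the enzyme, ATP5C1, the rotating gamma subunit, averaged 411 ± 14 with doxycycline and 376 ± 18.5 without it in LS411N-BR (0.13 ± 0.04 SE, limma adjusted p = 0.029). ATP5A1, the alpha subunit of the catalytic head, averaged 139.9 ± 7.82 with doxycycline and 157 ± 3.12 without it (-0.16 ± 0.04 SE, limma adjusted p = 0.0065). ATP5G3, a gene for the rotor ring, averaged 39.8 ± 0.328 with doxycycline and 42.1 ± 0.95 without it (-0.08 ± 0.03 SE, limma adjusted p = 0.034). The directions of ATP5A1 and ATP5G3 turned with TPM as deposited, to 0.04 and 0.12. The calls of ATP5C1 and ATP5G3 were each lost without any 1 of 4 of the 6 libraries: for ATP5C1 replicates 1 and 2 of both groups (limma adjusted p 0.072 to 0.10), and for ATP5G3 replicates 1 and 3 of both groups (0.075 to 0.11).

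**Figure D2:**
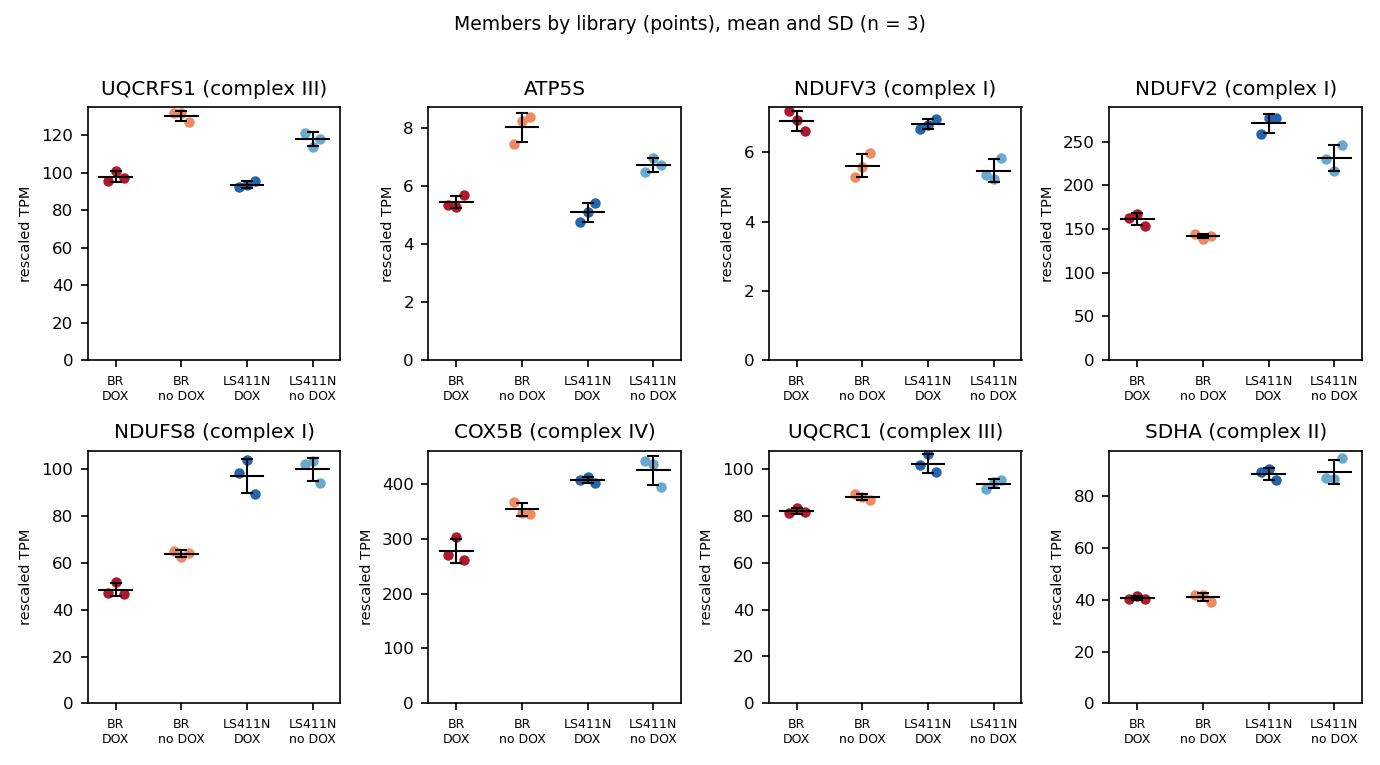
Rescaled TPM of 8 members in each of the 12 libraries (points), with the mean and SD of 3 libraries (bars), for LS411N-BR with and without doxycycline and LS411N with and without it. UQCRFS1 and ATP5S are lower and NDUFV3 and NDUFV2 higher with doxycycline in both lines, NDUFS8 and COX5B are lower in LS411N-BR with doxycycline, UQCRC1 is slightly lower there, and SDHA overlaps within each line.

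Across the lines, 4 members were called higher in both (NDUFA1, NDUFV2, NDUFV3 and UQCR10), 2 lower in both (UQCRFS1 and ATP5S) and none in opposite directions. 2 members (NDUFA5 and NDUFA8) were called in LS411N alone, 22 in LS411N-BR alone and 48 in neither. All genes were also called more often in LS411N-BR (33.5% higher and 31% lower) than in LS411N (19.1% and 15.4%). The shares of all genes called in both lines, in 1 line alone or in neither were not counted. Whether the effect differed between the lines was tested as the difference of the log2 changes, LS411N-BR minus LS411N, in a limma fit over all 12 libraries. 3 of 78 members (3.85%) had a more negative effect in LS411N-BR, against 5.81% of all genes tested, and none a more positive one, against 4.33%. At an unadjusted p under 0.05, 13 members (16.7%, against 13.9% of all genes) had a more negative effect and 1 (1.28%, against 11.3%) a more positive one. The 3 were NDUFS8 (-0.35 ± 0.08 SE, limma adjusted p = 0.017), UQCRC1 (-0.22 ± 0.05 SE, adjusted p = 0.017) and COX5B (-0.29 ± 0.08 SE, adjusted p = 0.042). NDUFS8 and COX5B were called lower in LS411N-BR and not called in LS411N. UQCRC1 was called lower in LS411N-BR and was at 102, 107 and 98.6 rescaled TPM in LS411N with doxycycline, against 91.6, 94.6 and 95.1 without it, which did not pass the test there (limma adjusted p = 0.082). With no filter the call of COX5B was lost (adjusted p = 0.088). No difference was called with TPM as deposited, nor without replicate 1 of LS411N-BR with doxycycline. Without replicate 1 of the LS411N-BR controls 1 was called, without replicate 2 of LS411N-BR with doxycycline 1 higher and 4 lower, and without replicate 3 of the LS411N controls 1 higher and 9 lower.

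The difference was negative for 62 of the 78 members, with a median of -0.07, against -0.01 over all genes tested. In the matrix arm of complex I 15 of 16 were negative (median -0.12), in the membrane arm 15 of 20 (-0.07), in complex II 2 of 4 (-0.03), in complex III 8 of 11 (-0.06), in complex IV 10 of 11 (-0.08) and in complex V 12 of 16 (-0.06). NDUFA12 was the exception in the matrix arm, at 0.11 ± 0.10 SE. All members were measured in the same 12 libraries, so these signs are not independent of each other, and they are given as a description. With TPM as deposited the medians were above 0 in all 5 complexes, between 0.04 and 0.09, and the median of all genes was 0.11.

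**Figure D3:**
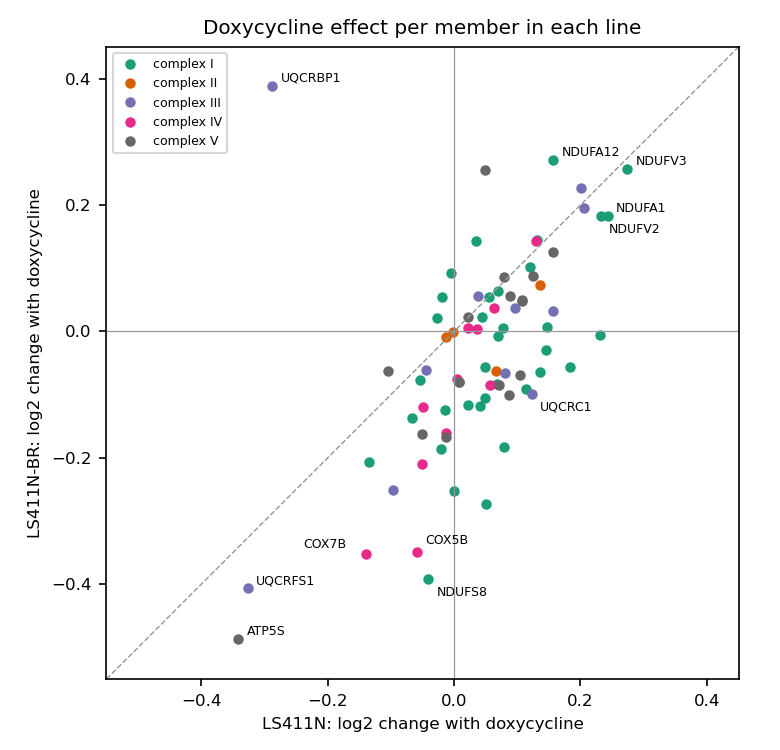
Log2 change with doxycycline of each member in LS411N-BR (vertical axis) against LS411N (horizontal axis), coloured by complex, with the dashed line where both are equal. UQCRFS1 and ATP5S lie low and NDUFV3, NDUFV2 and NDUFA1 high in both lines, NDUFS8, COX5B and COX7B lie well below the dashed line, and 62 of the 78 points are under it.

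Promoters were found in RefSeq for 8 of the 9 members called in both lines in the same direction or in the difference between lines, and the 3 that held a match to a motif known for this gene family are shown. UQCRFS1 was lower in both lines, and UQCRC1 and COX5B had different effects in the lines. The sequences are the 250 bases before the RefSeq start of each gene on GRCh38.p14, 5′ to 3′ on the gene's own strand, with motif matches in capitals: UQCRFS1 at chr19:29213152-29213401 on the minus strand, UQCRC1 at chr3:48609647-48609896 on the minus strand and COX5B at chr2:97645812-97646061 on the plus strand.
UQCRFS1: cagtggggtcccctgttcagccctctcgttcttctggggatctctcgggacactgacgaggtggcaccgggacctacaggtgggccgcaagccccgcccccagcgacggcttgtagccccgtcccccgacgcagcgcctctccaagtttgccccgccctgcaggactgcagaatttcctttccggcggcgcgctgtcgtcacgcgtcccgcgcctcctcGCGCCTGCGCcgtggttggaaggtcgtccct
UQCRC1: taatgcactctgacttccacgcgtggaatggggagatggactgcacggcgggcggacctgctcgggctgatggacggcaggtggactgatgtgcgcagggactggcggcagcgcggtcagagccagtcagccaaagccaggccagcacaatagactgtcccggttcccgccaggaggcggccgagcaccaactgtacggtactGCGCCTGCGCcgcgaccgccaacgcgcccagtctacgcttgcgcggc
COX5B: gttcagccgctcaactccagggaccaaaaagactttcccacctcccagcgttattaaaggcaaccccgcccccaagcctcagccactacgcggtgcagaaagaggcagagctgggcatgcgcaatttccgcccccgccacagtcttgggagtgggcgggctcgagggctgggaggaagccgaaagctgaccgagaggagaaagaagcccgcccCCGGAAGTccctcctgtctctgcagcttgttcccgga
The capitals mark an NRF1 motif 31 to 22 bases before the start of UQCRFS1 and 47 to 38 bases before that of UQCRC1, and an ETS motif 37 to 30 bases before that of COX5B. RefSeq held a promoter for 61 of the 78 members. The NRF1 motif, searched on both strands as GCGC, then A and any base, then GCGC (on the other strand GCGC, any base and T, GCGC), stood in 13 of these (21.3%), against 5.07% of 35116 promoters of the same length and 11% of 8857 promoters of tested genes. The ETS motif, CCGGAAGT or its reverse ACTTCCGG, stood in 9 (14.8%), against 3.42% of all and 7.71% of tested genes. A YY1 motif, AAGATGGC or its reverse GCCATCTT, stood in 1 (1.64%), against 1.36% and 2.02%. The members called higher in both lines (NDUFV2, NDUFV3, NDUFA1 and UQCR10) and NDUFS8 held none of these letters in this window. Matches are a description of letters and not of binding.

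Between the lines, the levels of the members differed more than with doxycycline. In LS411N-BR without doxycycline the 78 members summed to 11751, 10953 and 11665 rescaled TPM, against 14128, 13664 and 13534 in LS411N without it. With doxycycline they summed to 11353, 11389 and 10566 in LS411N-BR, against 14023, 14085 and 14269 in LS411N. The median member was at 76.2 rescaled TPM in LS411N-BR and 100.1 in LS411N without doxycycline. The lines were not tested against each other, because their tables were scaled over different genes, and because line, inhibitor in the medium and table cannot be told apart. Their levels are therefore set side by side.

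Summed over its members, complex I stood at 2861 ± 143 rescaled TPM in LS411N-BR with doxycycline and 2869.9 ± 91.8 without it, and at 4594 ± 11.6 in LS411N with doxycycline and 4344 ± 86.3 without it. Complex II summed to 376 ± 3.47 in LS411N-BR with doxycycline and 379 ± 7.7 without it, and to 339.7 ± 13.7 in LS411N with doxycycline and 325 ± 10.6 without it. Complex III summed to 876 ± 17.3 in LS411N-BR with doxycycline and 913 ± 27.5 without it, and to 1028 ± 9.53 in LS411N with doxycycline and 1009.8 ± 48.2 without it. In rescaled TPM these 3 sums differed more between the lines than with doxycycline, with complexes I and III lower and complex II higher in LS411N-BR. Complex IV summed to 3632 ± 192 in LS411N-BR with doxycycline and 3938 ± 203 without it, and to 4819.7 ± 90.1 in LS411N with doxycycline and 4910.5 ± 103 without it. Complex V summed to 3357 ± 127 in LS411N-BR with doxycycline and 3357 ± 112 without it, and to 3344 ± 44.2 in LS411N with doxycycline and 3186 ± 132 without it. Complex IV was also lower in LS411N-BR, while the sum of complex V in rescaled TPM lay within a narrow range in all 4 groups. This range depends on the scaling. ATP5B, the most abundant member of complex V, averaged 948 deposited TPM with doxycycline and 797 without it in LS411N-BR. In LS411N it averaged 774 with doxycycline and 686 without it. Its rescaled means were 840, 813, 788 and 731 in the same order. Complex sums of deposited TPM were not compared. COX7C, ATP5B and COX6B1 were among the 5 most abundant members in every group, so the sums of complexes IV and V rest largely on a few genes.

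Without doxycycline, 24 members were higher in every LS411N-BR library than in every LS411N library (30.8%, against 41.7% of all genes), 43 were lower (55.1%, against 34.3%) and 11 overlapped. At least 2-fold lower on the log2(TPM + 1) scale were 16 members (20.5%, against 3.02% of all genes), and none was 2-fold higher (against 3%). With doxycycline 23 were higher (against 43.8% of all genes), 45 lower (against 38%), 16 at least 2-fold lower (against 3.92%) and 1, the pseudogene UQCRBP1, 2-fold higher (against 3.1%). The order of the lines was the same, without overlap, both without and with doxycycline for 65 members. Most of all genes also did not overlap between the lines (41.7% higher and 34.3% lower without doxycycline, 43.8% and 38% with it). The share of all genes with the same order in both was not counted. Without doxycycline the median log2 difference was -0.39 in complex I, 0.48 in complex II, -0.26 in complex III, -0.53 in complex IV and 0.03 in complex V, against 0.04 over all genes.

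**Figure D4:**
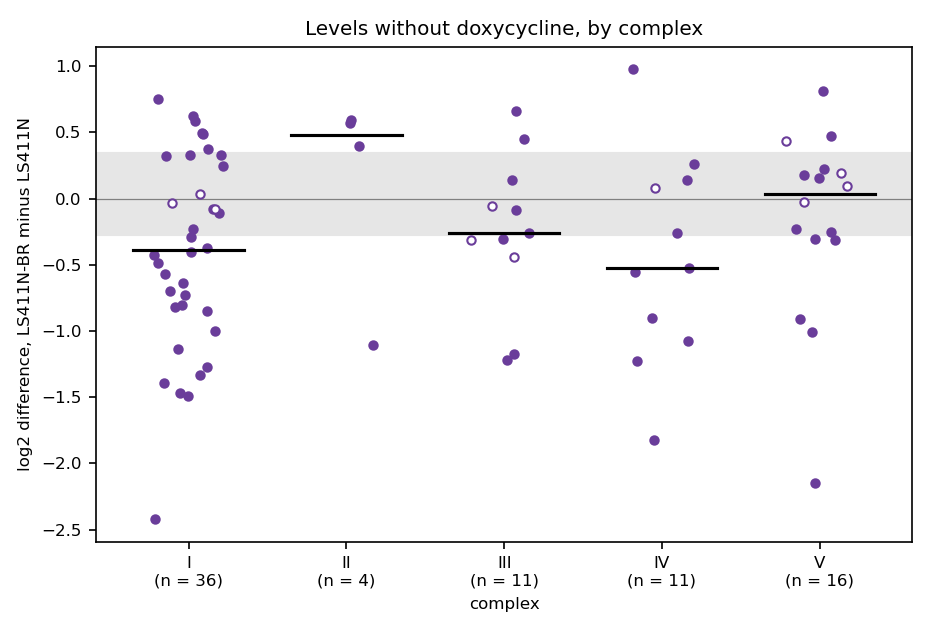
Log2 difference of the mean levels without doxycycline, LS411N-BR minus LS411N, for each of the 78 members (points) by complex. Filled points are members whose libraries do not overlap between the lines, black bars are complex medians and the grey band is the interquartile range of all genes. Complexes I and IV have their medians below the band and complex II above it, and 16 members lie at -1 or lower.

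The members farthest down were spread over the complexes. NDUFS6, a zinc-binding subunit of the matrix arm of complex I (chromosome 5, 1801400 to 1816605, plus strand), was at 80.9, 88 and 74.2 rescaled TPM in LS411N-BR without doxycycline, against 436, 409 and 469 in LS411N, 5.4 times as much in LS411N by the means (log2 difference -2.42). ATP5L, the g subunit of the membrane part of ATP synthase (ATP5MG in newer naming), was at 31.5, 30.4 and 28 in LS411N-BR, against 147, 138 and 125 in LS411N (-2.15). COX4I1 of complex IV (chromosome 16, 85798633 to 85807044, plus strand), was at 107, 96.2 and 101 in LS411N-BR, against 353, 349.8 and 380.5 in LS411N (-1.83). NDUFB1, an accessory subunit of the membrane arm, averaged 96.6 ± 5.05 in LS411N-BR and 274 ± 12.5 in LS411N (-1.49). The libraries of the lines lay far apart for all 4, and the differences were at least as large with doxycycline, at -2.68, -2.21, -1.97 and -1.63. None of NDUFS6, ATP5L and NDUFB1 was called with doxycycline in either line. The other members at least 2-fold lower in LS411N-BR were NDUFA2, NDUFA3, NDUFB4, NDUFB8, NDUFB9 and NDUFS5 of complex I, SDHA, UQCRB, UQCRQ, COX6C, COX7B and ATP5G2, between -1.47 for NDUFA3 and -1.003 for NDUFB4.

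Other members were higher in LS411N-BR. COX6A1, a subunit of complex IV, was at 696, 617 and 759.8 rescaled TPM in LS411N-BR without doxycycline, against 360.3, 357 and 333 in LS411N (log2 difference 0.97). ATP5O, which ties the catalytic head of ATP synthase to its outer stalk, averaged 289 ± 5.82 in LS411N-BR and 164 ± 1.78 in LS411N (0.81). NDUFS7 averaged 45.6 ± 2.22 in LS411N-BR and 26.9 ± 4.01 in LS411N (0.75). CYC1, cytochrome c1 of complex III, averaged 172 ± 6.79 in LS411N-BR and 108 ± 8.4 in LS411N (0.66). Subunits of 1 complex thus stood in opposite order in the lines: in complex II, SDHA was at 41 ± 1.45 in LS411N-BR and 89.5 ± 4.64 in LS411N, while SDHD was at 199 ± 5.32 in LS411N-BR and 131 ± 3.64 in LS411N, and SDHB and SDHC were also higher in LS411N-BR, at 0.39 and 0.57.

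**Figure D5:**
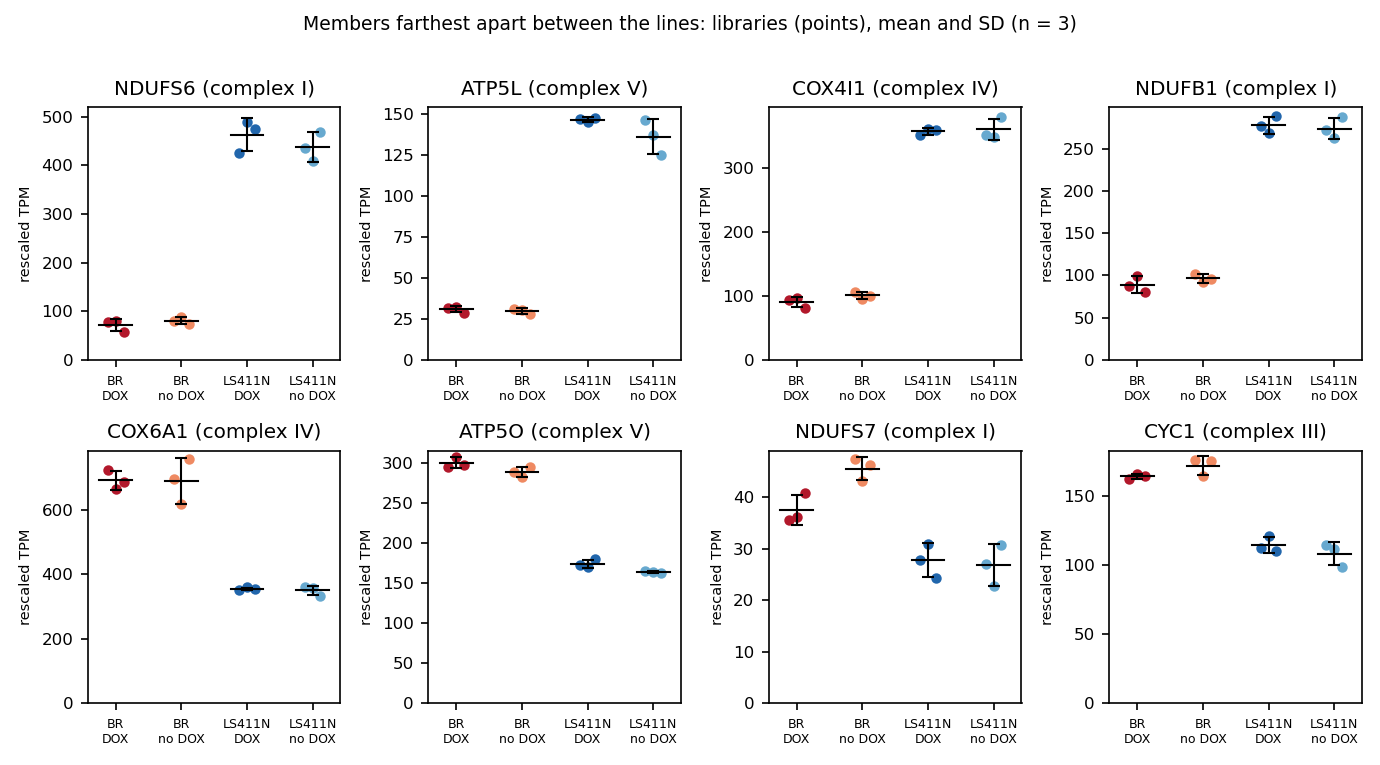
Rescaled TPM of the 4 members with the lowest and the 4 with the highest log2 difference between the lines, in each of the 12 libraries (points), with the mean and SD of 3 libraries (bars). For NDUFS6, ATP5L, COX4I1 and NDUFB1 all LS411N-BR libraries lie below all LS411N libraries, and for COX6A1, ATP5O, NDUFS7 and CYC1 above them.

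Transcript length moved with the line difference. The longest GENCODE transcript of a member had a median of 1510.5 bases, against 3678 over 10682 tested protein-coding genes. Tested coding genes under 1500 bases (883) had a median log2 difference between the lines of -0.10, and those of 1500 bases or more (9799) 0.06. The 38 members under 1500 bases had a median of -0.35 and the 39 longer coding members -0.08. The part of length in the line differences was not tested.

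Genes that act with the complexes were taken from lists set beside the members. Of all genes tested, 33.5% were called higher and 31% lower in LS411N-BR, and 19.1% and 15.4% in LS411N, and the counts of these small lists are given as a description beside those shares. Assembly factors of complex I, 15 in all, had 8 called higher and 2 lower in LS411N-BR and 5 higher in LS411N. TMEM126B averaged 29.2 ± 0.839 rescaled TPM with doxycycline and 24.4 ± 1.56 without it in LS411N-BR, and 21.1 ± 1.03 with it and 17.2 ± 0.442 without it in LS411N (limma adjusted p = 0.00096 and 0.0044). FOXRED1 was called lower in LS411N-BR, at 12.1 ± 0.591 with doxycycline and 16.7 ± 0.422 without it (-0.44 ± 0.04 SE, limma adjusted p = 9.5e-06), and its effect differed between the lines (-0.33 ± 0.08 SE, limma adjusted p = 0.024). Complex III factors, 6 in all, had 4 called higher and 2 lower in LS411N-BR and 1 higher and 3 lower in LS411N. TTC19, which acts on the Rieske protein UQCRFS1 within complex III, was lower with doxycycline in both lines, at 43.9 ± 1.2 with it and 55.3 ± 0.894 without it in LS411N-BR (-0.33 ± 0.03 SE, limma adjusted p = 1.2e-05) and 41.8 ± 0.833 with it and 48.3 ± 1.12 without it in LS411N (-0.20 ± 0.04 SE, limma adjusted p = 0.0086). LYRM7, a chaperone of the same Rieske protein, was called higher in LS411N-BR (0.26 ± 0.03 SE, limma adjusted p = 7.1e-05) and not in LS411N (0.17 ± 0.07 SE, limma adjusted p = 0.092). UQCC1 was called higher in LS411N-BR (0.22 ± 0.03 SE, limma adjusted p = 0.00039) and lower in LS411N (-0.15 ± 0.05 SE, limma adjusted p = 0.048). The effect on UQCC1 differed between the lines (0.37 ± 0.06 SE, limma adjusted p = 0.0014). Complex IV factors had 5 called higher and 9 lower of 20 in LS411N-BR, and 3 higher and 2 lower of 19 in LS411N. COX10, which makes heme for complex IV, was called higher in both lines (0.30 ± 0.04 SE in LS411N-BR and 0.18 ± 0.05 SE in LS411N). COX19, a factor of the same list, was called lower in both (-0.28 ± 0.04 SE, limma adjusted p = 0.00021 in LS411N-BR, and -0.34 ± 0.07 SE, limma adjusted p = 0.0046 in LS411N). All 3 complex V factors were called higher in LS411N-BR and 2 of them in LS411N, with TMEM70 at 0.27 and 0.34. Of 4 complex II factors 1 was called higher in each line, SDHAF2 in LS411N-BR (0.15) and SDHAF3 in LS411N (0.35).

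Among 15 genes of ubiquinone synthesis, cytochrome c and electron transfer flavoproteins, 3 were called higher and 8 lower in LS411N-BR (33.5% and 31% of all genes were), and 5 higher and 4 lower in LS411N (19.1% and 15.4%). ETFDH, which feeds electrons from fatty acid oxidation into ubiquinone, averaged 15 ± 0.812 rescaled TPM with doxycycline and 9.28 ± 0.38 without it in LS411N-BR (0.64 ± 0.04 SE, limma adjusted p = 1.7e-06), and 13.6 ± 0.568 with it and 7.79 ± 0.394 without it in LS411N (0.73 ± 0.06 SE, limma adjusted p = 4.2e-05). PDSS1, which makes the ubiquinone side chain, averaged 24.9 ± 0.633 with doxycycline and 43.9 ± 0.265 without it in LS411N-BR (-0.79 ± 0.03 SE, limma adjusted p = 3.4e-08), and 16.8 ± 1.67 with it and 26.4 ± 4.71 without it in LS411N (-0.61 ± 0.12 SE, limma adjusted p = 0.0044). Their changes exceeded those of all 78 members in both lines. COQ5 and COQ6, enzymes of the ubiquinone ring, had effects that differed between the lines (-0.32 ± 0.07 SE, limma adjusted p = 0.011, and -0.27 ± 0.06 SE, adjusted p = 0.015). Of 13 citric acid cycle genes, 5 were called higher in LS411N-BR and 4 in LS411N (33.5% and 19.1% of all genes were). None of the 13 was called lower in either line (31% and 15.4% of all genes were). Of 15 regulators of mitochondrial biogenesis, 4 were called higher and 7 lower of 14 tested in LS411N-BR, and 3 lower of 15 in LS411N. The coactivators PPRC1 and PPARGC1B had the smallest adjusted p of these in LS411N-BR and were called higher there. Their log2 changes were 0.22 ± 0.03 SE (limma adjusted p = 0.00029) and 0.27 ± 0.04 SE (limma adjusted p = 0.00034). In LS411N they were at 0.13 and 0.07, neither called. NRF1, whose motif is described above, was called lower in both lines (-0.19 ± 0.05 SE, limma adjusted p = 0.0071 in LS411N-BR, and -0.29 ± 0.08 SE, adjusted p = 0.023 in LS411N). With TPM as deposited the median of all genes shifted to 0.18 in LS411N-BR. The fall of NRF1 there was about that size, so it rests on the scaling. PPARGC1A, a coactivator of mitochondrial genes, averaged 1 ± 0.0511 with doxycycline and 1.99 ± 0.0699 without it in LS411N (-0.58 ± 0.07 SE, limma adjusted p = 0.00036) and was at 0.123 ± 0.0279 with doxycycline and 0.0776 ± 0.0181 without it in LS411N-BR, under the level filter. The effect on PPARGC1A differed between the lines (0.64 ± 0.08 SE, limma adjusted p = 0.0003), and so did that on the regulator GABPB2 (-0.20 ± 0.06 SE, limma adjusted p = 0.040). The 13 subunits encoded in mitochondrial DNA were not analysed here. 7 subunit isoforms of muscle, testis or hypoxia were in the tables and none passed the level filter. Of 4 subunit genes with names outside the rule, COX7A2L was called higher in both lines (0.20 in LS411N-BR and 0.25 in LS411N) and USMG5 in LS411N (0.17).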

How the data were processed

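The authors deposited a gene table of TPM for each line (1000000 per library), from TruSeq stranded mRNA libraries per the labels' protocols. STAR, DESeq2 and GRCh38 are named without roles, per the submitters' processing notes. The program that made the TPM, its annotation, its use of strand and the read totals are not stated, so depth is unknown and no counting interval is given.

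TPM were multiplied by median-of-ratios factors over genes of both tables above 0 in all 12 libraries. Genes with at least 1 deposited TPM in at least 3 libraries compared were tested on log2(rescaled TPM + 1), using limma 3.58.1 (R 4.3.3) and a trended prior: 11281 genes in LS411N, 11322 in LS411N-BR and 11674 for the difference between lines, fitted over 12 libraries. P-values were adjusted over all genes tested (Benjamini-Hochberg). The code was tested on simulated data. Same-numbered libraries did not deviate together (correlations between -0.014 and 0.185), so numbers were not used as pairs.

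Members and lists were chosen with earlier results of these data known. The text names MUC1, all of complex II, up to 4 called members per complex, direction and line with the smallest adjusted p, members called in the difference, the 4 largest and 4 smallest line differences, members at the threshold, and up to 2 called genes per related list. Other called members are named for completeness after their values were seen. Symbols were matched to GENCODE 29 (all 78 members) and to RefSeq promoters on GRCh38.p14.

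Alternatives were TPM as deposited, factors within a line or over protein-coding genes, a pseudocount of 0.1 TPM, no filter or a filter of 5 TPM, no trend, robust moderation, the replicate number as a block, a spread from all 12 libraries, and leaving out each library.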

Additional observations from a re-analysis of the deposited data

Results flagged for a closer look

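For 3 members the effect of doxycycline differed between the lines in limma's test of the difference itself, over 12 libraries and LS411N-BR minus LS411N. NDUFS8, an iron-sulfur subunit of complex I, had a difference of -0.351 on the log2 scale: it fell in LS411N-BR and did not pass the test in LS411N. UQCRC1, a core subunit of complex III, had a difference of -0.222, with every induced library below the controls in LS411N-BR and every induced library above them in LS411N. COX5B, a subunit of complex IV, had a difference of -0.29 and fell in LS411N-BR, while its libraries overlapped in LS411N. The call of NDUFS8 was lost without replicate 1 of LS411N-BR with doxycycline (limma adjusted p = 0.053). That of UQCRC1 was lost without the same library or without replicate 1 of the LS411N-BR controls (0.053 to 0.056). That of COX5B was lost without any 1 of 8 of the 12 libraries (0.070 to 0.11) and with no filter (0.088). All 3 differences stayed below 0 in each setting run and none was called with TPM as deposited.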

How the results depend on the processing

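With TPM as deposited the median log2 change of all genes was 0.18 in LS411N-BR, 0.08 in LS411N and 0.11 for the difference between lines. In LS411N-BR 6351 genes were called higher and 1252 lower (83.5% of calls higher, against 51.9% with rescaled TPM), with 44 members higher and 5 lower, and complex medians were 0.16 (I), 0.19 (II), 0.23 (III), 0.12 (IV) and 0.18 (V). In LS411N 1100 genes were called higher and 387 lower (74%, against 55.5%), 0 members in either direction, and medians were 0.12 (I), 0.10 (II), 0.15 (III) and 0.15 (V). For the difference 162 were called higher and 85 lower (65.6%, against 42.7%), 0 members lower, with medians of 0.043 (I), 0.0948 (II), 0.0695 (III), 0.0487 (IV) and 0.0681 (V). Between the lines the medians were -0.32 (I), 0.55 (II), -0.19 (III) and 0.11 (V) without doxycycline, and -0.25 (I), 0.60 (II), -0.12 (III), -0.41 (IV) and 0.11 (V) with it. In LS411N-BR 34 of 44 members below 0 were above 0 with TPM as deposited. Those called under either scaling, among the members called in either line or of complex II, were SDHA 0.19, SDHC 0.19, SDHD 0.14, NDUFA5 0.18, ATP5A1 0.0375, ATP5G3 0.12, COX6B1 0.0813, UQCRC1 0.10, NDUFS1 0.0808, COX4I1 0.0381, NDUFA11 0.0065, NDUFA2 0.0576, NDUFA8 0.17 and NDUFV1 0.12. No filter gave 3 members higher in LS411N, 6 higher and 15 lower in LS411N-BR and 2 for the difference, a spread from all 12 libraries 13, and a filter of 5 TPM a median of -0.0622 for complex V in LS411N-BR. The cause of these changes was not tested.

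Leaving out 1 library of LS411N, genes called numbered 1355 to 2933 (higher) and 1108 to 2349 (lower), with 1 to 13 members higher and 2 to 8 lower, and medians of 0.0106 to 0.0787 (II), -0.0052 to 0.11 (III) and 0.029 to 0.0939 (V). The most calls came without replicate 3 of the LS411N controls, and the fewest without replicate 2 of the induced libraries (1414 higher without replicate 3 of these). In LS411N-BR it gave 7 to 14 members higher and medians of -0.0472 to 0.0555 (III) and -0.0702 to 0.0129 (V). For the difference it gave 262 to 1005 genes higher, 393 to 1329 lower, 0 to 1 members higher and 0 to 9 lower, with the most again without replicate 3 of the LS411N controls, the fewest without replicate 1 of LS411N-BR with doxycycline, 277 and 439 without replicate 3 of that group, and 310 and 422, 326 higher, and 305 and 414 without replicates 1, 2 and 3 of the LS411N-BR controls. The medians were -0.0721 to -0.0141 (II) and -0.11 to -0.0363 (V). Between the lines it gave medians of 0.43 to 0.51 (II) and -0.0907 to 0.0696 (V) without doxycycline, and 0.36 to 0.43 (II) and -0.13 to -0.0516 (V) with it. Of members called, 20 of 28 in LS411N-BR, 3 of 8 in LS411N and 0 of 3 for the difference passed whichever library was left out.

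Same-numbered libraries correlated at 0.024, -0.014 and 0.185 in LS411N and at 0.028, -0.0045 and 0.0057 in LS411N-BR, and replicate 1 of LS411N with doxycycline correlated more with replicate 2 of the controls (0.244), so the numbers were not taken as pairs. With the replicate number as a block, 10 members were called higher and 20 lower in LS411N-BR, 5 and 2 in LS411N, and 0 and 3 for the difference. Over named genes and all settings, 1629 results kept direction and side of the threshold, 152 lost the call, 16 gained it and 14 reversed. Depth is unknown, so members at a few TPM, such as ATP5E and UQCRBP1, have no counting limit.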

Other observations

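Where the members farthest apart between the lines lie in the genome was looked at after their values were seen, as a description without a test. For each of the 16 members at least 2-fold lower in LS411N-BR and the 4 farthest up, the tested genes within 2000000 bases on either side were set beside it (GENCODE 29 on GRCh38), without doxycycline and beside all tested genes, of which 34.3% were lower and 41.7% higher without overlap (median log2 difference 0.04). NDUFS6 and SDHA share the end of the short arm of chromosome 5. Of 21 tested neighbours of NDUFS6, which include SDHA, 14 were lower in every LS411N-BR library than in every LS411N library and 2 higher, with a median log2 difference of -0.40. Of 20 neighbours of SDHA, 13 were lower and 2 higher (median -0.40). MRPL36, a mitochondrial ribosomal protein gene whose annotated end lies 34 bases from the start of NDUFS6, was at 0.01 and its libraries overlapped between the lines, whereas NDUFS6 was at -2.42. SDHA was the only neighbour of NDUFS6 at least 2-fold lower.

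Around NDUFA2 on chromosome 5, 23 of 35 neighbours were lower and 4 higher (median -0.32), and around ATP5O on chromosome 21, 2 of 22 were lower and 16 higher (median 0.30). The neighbours of ATP5L and COX4I1 had medians of 0.03 and 0.10, although these members were at -2.15 and -1.83. Around other members the neighbours went the opposite way. UQCRB was at -1.22, with 4 of 18 neighbours lower and 11 higher (median 0.23). NDUFB4 was at -1.003, with 5 of 22 lower and 13 higher (0.19), and NDUFS5 at -1.33, with 11 of 38 lower and 17 higher (0.13). CYC1 was at 0.66, with 27 of 58 lower and 12 higher (-0.13). Copy number was not measured, and its part in these differences was not tested.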
